A study of Mus musculus with 14 samples.

Results

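Integrins are cell-surface receptors built from an α and a β chain, and the 10 integrin subunit genes described here are the chains by which leukocytes, dendritic cells among them, bind other cells and matrix: Itgb8 and Itgav, Itgb7, Itgae and Itga4, Itgb1, and the β2 family of Itgb2, Itgal, Itgam and Itgax. They are 10 of the 18193 genes that the array's annotation names through a probe set of 1 gene. For each gene the probe set (a group of short probes against the same transcript) with the highest mean level over the 14 arrays was read. The probe sets were thus chosen by their measured mean, which is given only as a description. The list itself was drawn up with earlier results of these data known, among them a rise of Itgb8 and a fall of Itgb7, so those calls are not independent evidence for the choice.

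Dendritic cells were grown from bone marrow progenitors of BALB/c mice for 8 days in recombinant GM-CSF (granulocyte-macrophage colony-stimulating factor), and RNA from them was profiled on 14 Affymetrix arrays. There were 7 groups with 2 arrays each, from experiments done independently, called experiment 1 and experiment 2 here. The animals' age is not stated in the labels, nor is the number of mice behind a culture. Before any stimulus every culture was treated for 1 h with the solvent DMSO (0.01%), with CLIK148, an inhibitor of the protease cathepsin L, at 5 µM, or with CA074Me, an inhibitor of cathepsin B, at 5 µM. The 3 unstimulated groups received solvent, CLIK148 or CA074Me and nothing more. Of the 4 stimulated groups, solvent-treated and CLIK148-treated cells received CpG oligonucleotide at 25 µg/mL, and solvent-treated and CA074Me-treated cells received tumour necrosis factor alpha (TNF) at 500 U/mL. CpG oligonucleotides engage Toll-like receptor 9, and the labels name CpG as the pro-Th1 and TNF as the pro-Th2 stimulus. CLIK148 was not combined with TNF, nor CA074Me with CpG, and no source used here gives the time at which stimulated cells were harvested.

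As background, a β chain decides which α chains it can join, so genes for both chains are needed for a receptor at the surface. The αvβ8 receptor binds latent TGF-β and frees its active form, and dendritic cells use it to present active TGF-β to T cells. The α4β7 receptor binds the gut addressin MAdCAM-1, αEβ7 (αE is also called CD103) binds E-cadherin, and the β2 receptors bind ICAMs and complement fragments.

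Values are log2 expression levels from RMA, a method that corrects background and scales arrays to each other, so 1 unit is a doubling. Array medians lay between 7.48 and 7.54, and replicate arrays of a group correlated at 0.961 to 0.985 over the 12172 genes tested here. A gene was tested if 2 or more arrays exceeded the overall median of 7.52, which held for 12172 genes and for all 10 integrin genes. The labelled cell type was checked on 13 markers of conventional dendritic cells. Of those 12 were on the array and 11 were tested, while Xcr1 stayed below the overall median on every array. Markers of other cells were present as well: the summed granulocyte level was 16.25 to 16.65 over all arrays, and that of dendritic cells 15.88 to 16.24. In such bulk cultures fewer cells of a type and less RNA per cell cannot be told apart, which holds for every fall given here.

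CpG moved the integrin genes in both directions. In solvent-treated cells Itgb8 rose 14.6-fold and Itgb7 fell 2.28-fold, while the β2 family genes Itgb2, Itgal, Itgam and Itgax had differences between -0.28 and 0.23 log2 that did not pass the test. Against solvent, 2 of the 10 genes passed an adjusted p of 0.05 in limma, where 1.92% of all tested genes did, 234 of 12172 (1.07% higher and 0.854% lower). The replicate numbers pair the arrays, and with the experiment entered as a block 5 of the 10 passed, 3 higher (Itgb8, Itga4 and Itgb1) and 2 lower (Itgb7 and Itgae), where 19.9% of all tested genes did (6.19% higher and 13.7% lower). The arrays of both groups did not overlap for 4 of the 10, where 43.1% of all tested genes had that property. The median difference of the 10 genes was 0.06, beside -0.05 over all tested genes, with 5 above 0 and 5 below.

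**Figure D1:**
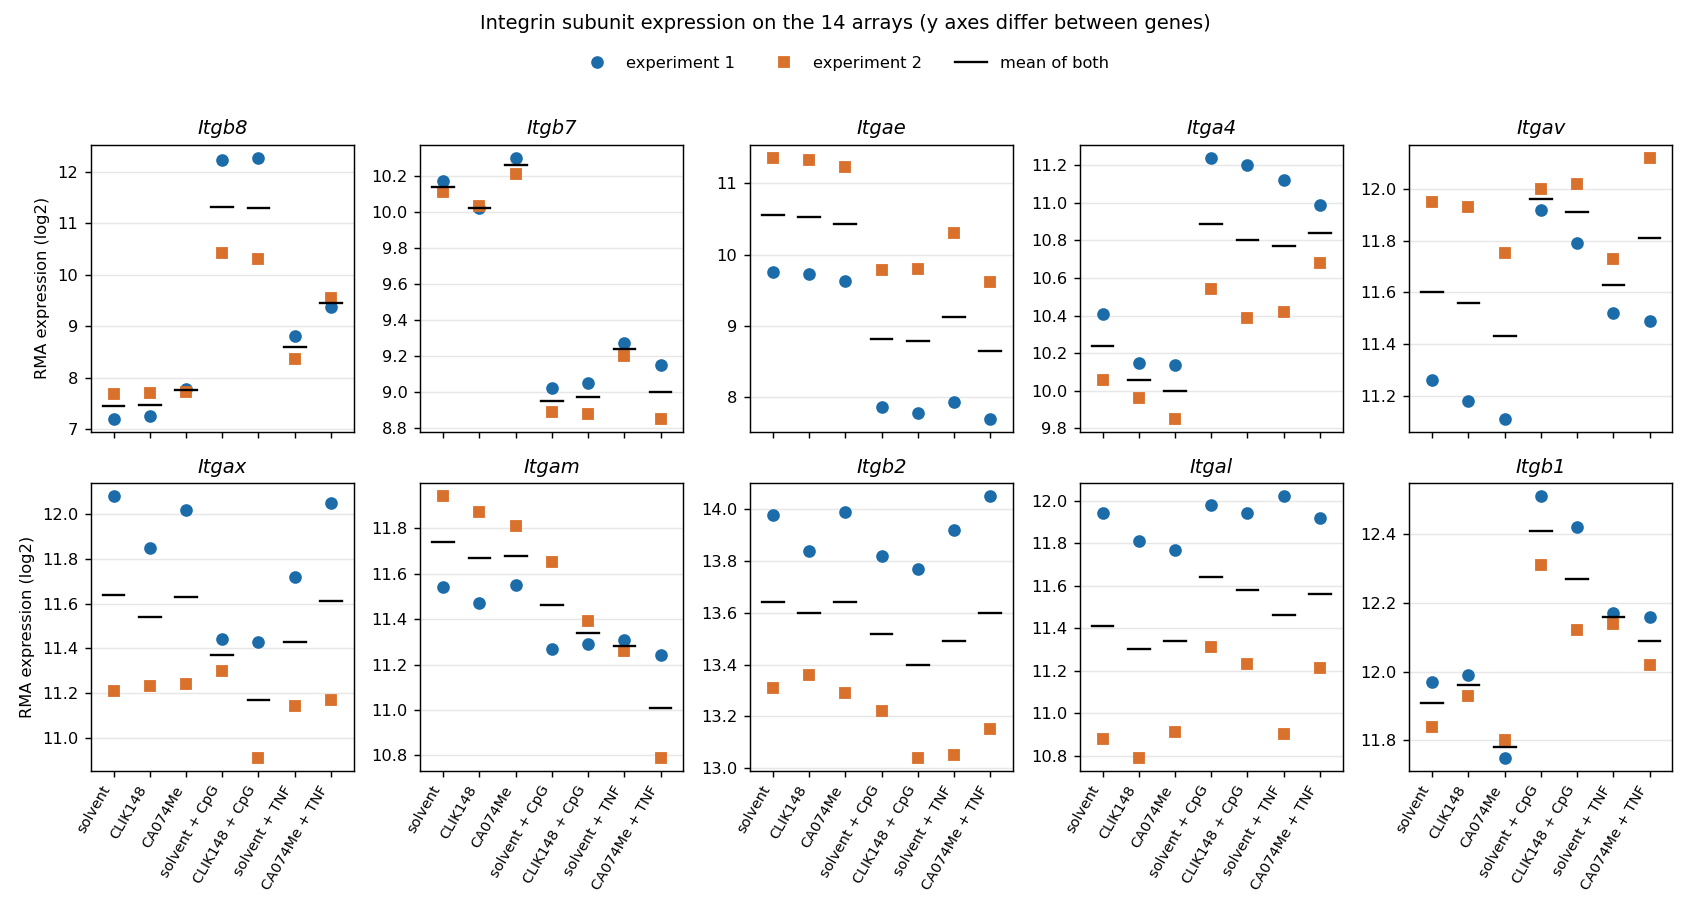
RMA expression (log2, y axis; scales differ between panels) of each of the 10 integrin genes on the 14 arrays, by group on the x axis. Circles are experiment 1, squares experiment 2 and bars the mean of both. Itgb8 lies between 7.20 and 7.79 without a stimulus and at 10.31 to 12.27 with CpG, and the squares of Itgae stand above its circles in every group.

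Itgb8 encodes the β8 chain, which pairs with αv alone, and Itgav encodes αv, which also pairs with other β chains. Their promoters are shown because αvβ8 joins the gene that rose most of the 10 to a partner that did not pass the test. Each is the 250 bases before the RefSeq start in build GRCm38.p6, read 5′ to 3′ on the gene's strand. Itgb8 is at chr12:119238277-119238526 on the minus strand and Itgav at chr2:83724147-83724396 on the plus strand. Capitals mark matches, on either strand, to GAGGAA for PU.1, a transcription factor of myeloid cells, or to the interferon response letters GAAANNGAA.
Itgb8: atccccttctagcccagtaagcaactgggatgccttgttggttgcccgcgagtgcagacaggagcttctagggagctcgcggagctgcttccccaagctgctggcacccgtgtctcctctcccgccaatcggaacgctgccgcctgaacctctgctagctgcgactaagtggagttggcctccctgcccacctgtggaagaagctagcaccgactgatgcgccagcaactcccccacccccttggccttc
Itgav: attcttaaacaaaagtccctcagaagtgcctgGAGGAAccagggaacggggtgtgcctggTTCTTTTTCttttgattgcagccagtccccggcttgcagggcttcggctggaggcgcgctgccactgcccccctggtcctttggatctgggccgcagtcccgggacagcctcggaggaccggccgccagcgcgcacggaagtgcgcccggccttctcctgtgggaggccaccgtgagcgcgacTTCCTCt
The Itgb8 window held no match. PU.1 letters were in 23.3% of 32851 promoters of that length and in 3 of the 7 integrin genes with an entry (Itgav, Itgam and Itgb1). The interferon response letters were in 7.13% of the promoters and, of the 7, in Itgav, and the NF-kB letters GGNNTTTCC in 4.93% and, of the 7, in Itgb1. The AP-1 letters TGANTCA were in 6.75% and, of the 7, in Itgax; all were searched on both strands. The NF-kB and interferon letters are shortened forms, taken after longer forms had matched none of the 7. These matches describe letters in a window and not binding.

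Without a stimulus Itgb8 (Entrez gene 320910) was near the overall median of 7.52. Its levels in experiments 1 and 2 were 7.20 and 7.69 with solvent, 7.25 and 7.70 with CLIK148, and 7.79 and 7.72 with CA074Me. CpG took it to 12.22 and 10.42 after solvent and to 12.27 and 10.31 after CLIK148. With TNF it was 8.82 and 8.37 after solvent and 9.37 and 9.55 after CA074Me. All 4 CpG arrays were thus above all 4 TNF arrays, which were above all 6 unstimulated arrays. The rise over solvent was 3.87 ± 0.66 log2 (standard error; 95% confidence interval 2.38 to 5.37; limma adjusted p = 0.029; n = 2 arrays per group). It was higher in both experiments, by 5.02 and by 2.73. Without the solvent array of experiment 1, that of experiment 2, or the CpG array of experiment 1, the differences were 3.63, 4.12 and 2.97, and the call was lost each time (limma adjusted p = 0.214, 0.133 and 0.188). It was also lost with array weights (0.0505) and when the fit held the compared groups alone (0.528).

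The size of the Itgb8 rise differed between the experiments. An interaction of CpG with experiment, a test chosen after the values were seen, gave a smaller rise in experiment 2 (difference -2.17 ± 0.19 log2, limma adjusted p = 6.7e-06). It pools solvent and CLIK148 arrays, with 1 array per group and experiment. Its error is thus the spread between differently treated cultures of the same experiment, not between repeated experiments. In that test 5 of the 10 genes differed in either direction, where 32.6% of all tested genes did. The 2 experiments were close on unstimulated and TNF arrays, with gaps (experiment 2 minus experiment 1) between -0.45 and 0.49, and lay -1.81 and -1.96 apart on the CpG arrays. With TNF the difference from solvent was 1.15 ± 0.66 (1.62 and 0.68 by experiment) and did not pass (limma adjusted p = 0.783). CpG exceeded TNF by 2.72 ± 0.66, by 3.40 and 2.05 in the experiments, and this did not pass either (adjusted p = 0.472, and 0.106 with the block).

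Itgav, the αv partner, varied less. Solvent arrays read 11.26 and 11.95, CpG arrays 11.92 and 12, and TNF arrays 11.52 and 11.73, so the groups overlapped. Its CpG difference was 0.36 ± 0.33 (adjusted p = 0.603), with 0.66 in experiment 1 and 0.05 in experiment 2. The CpG-by-experiment interaction was -0.54 (adjusted p = 0.00355). The range of Itgav over all arrays was 1.01 log2, beside 5.07 for Itgb8.

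The genes whose pattern was most like that of Itgb8 were Marco, 9130008F23Rik and Pla2g4f. Over the 14 arrays, after the mean of each experiment was subtracted, Pearson's r with Itgb8 was 0.994, 0.993 and 0.991. Marco encodes a scavenger receptor of phagocytes and Pla2g4f a phospholipase of the cytosolic A2 group. With CpG they rose by 2.99, 2.03 and 1.72 log2 (limma adjusted p = 0.0341, 0.0389 and 0.0274), and with TNF they differed by 0.82, 0.62 and 0.56, none of which passed. All genes are read on the same 14 arrays, and the 4 CpG arrays stand apart in level for Itgb8. The 3 genes were picked for following Itgb8 on these arrays, so their rises follow from that choice and are no separate result. The CpG calls of the 3 genes, like that of Itgb8, were lost without either solvent array (adjusted p from 0.0893 to 0.24).

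Itgb7 encodes β7, which joins α4 or αE. It fell with both stimuli, and its promoter is given because it passed the test in all 4 stimulus comparisons. The window is chr15:102231936-102232185 on the minus strand (GRCm38.p6, 250 bases before the RefSeq start, 5′ to 3′), with none of the 4 sets of letters and so no capitals.
Itgb7: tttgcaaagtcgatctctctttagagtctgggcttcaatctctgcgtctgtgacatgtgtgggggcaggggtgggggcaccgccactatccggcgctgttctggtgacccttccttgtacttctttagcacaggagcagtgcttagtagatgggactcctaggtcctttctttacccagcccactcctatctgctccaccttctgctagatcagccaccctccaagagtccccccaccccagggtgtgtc
Unstimulated Itgb7 levels (Entrez gene 16421) in experiments 1 and 2 were 10.17 and 10.11 with solvent, 10.02 and 10.03 with CLIK148, and 10.30 and 10.21 with CA074Me. CpG arrays read 9.02 and 8.89 after solvent and 9.05 and 8.88 after CLIK148. With TNF the gene was at 9.27 and 9.20 after solvent and at 9.15 and 8.85 after CA074Me. The 6 unstimulated arrays were all above the 8 stimulated ones, and the spread within a group was small (pooled SD 0.10). CpG lowered Itgb7 by 1.19 ± 0.11 log2 (difference -1.19, 95% confidence interval -1.43 to -0.95; limma adjusted p = 0.00347; n = 2 arrays per group), with -1.15 and -1.23 in the experiments. Without the solvent array of experiment 1 the adjusted p was 0.0501, and it was 0.528 in a fit of the compared groups alone.

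TNF moved fewer integrin genes past the threshold. In solvent-treated cells 1 of the 10, Itgb7, passed, where 0.115% of all tested genes did, 14 of 12172 (0.0822% higher and 0.0329% lower). With the block Itgae passed as well, making 2 of 10 where 3.11% of all tested genes passed (1.14% higher and 1.97% lower). The median TNF difference of the 10 genes was -0.07, beside -0.05 over all tested genes, and the arrays did not overlap for 5 of them, where 40.5% of all tested genes had that property. TNF lowered Itgb7 by 0.91 ± 0.11 log2 (difference -0.91, 95% confidence interval -1.15 to -0.67; limma adjusted p = 0.0233), with -0.90 and -0.91 in the experiments. The CpG and TNF comparisons subtract the same solvent arrays, so their agreement on Itgb7 is not independent. The TNF call was lost without any of the 4 arrays compared, with adjusted p from 0.116 to 0.274. Cyclic loess (-0.80, adjusted p = 0.134) and median centring (-0.80, 0.111) ended it too, as did fitting only the compared groups (0.55).

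Itgae encodes αE, a partner of β7, and started from different levels in each experiment. Solvent arrays read 9.75 and 11.36, CLIK148 arrays 9.73 and 11.33, and CA074Me arrays 9.63 and 11.23. CpG arrays read 7.86 and 9.78 after solvent and 7.78 and 9.80 after CLIK148, and TNF arrays 7.93 and 10.31 after solvent and 7.69 and 9.62 after CA074Me. Experiment 2 was higher in all 7 groups, by 1.6 to 2.38 log2, so stimulated and unstimulated arrays overlapped although each stimulated array lay below its own control. The CpG difference was -1.73 (-1.89 and -1.57) and the TNF difference -1.43 (-1.81 and -1.05). Neither passed without the block, whose standard error of 1.18 holds the gap between experiments (limma adjusted p = 0.475 and 0.839). With the block the standard error was 0.17 and both passed (0.0013 and 0.00854). Leaving out each array in turn, without the block, moved the CpG difference between -2.69 and -0.77 and the TNF difference between -2.62 and -0.24. The values nearest 0 came without the stimulated array of experiment 1. A second Itgae probe set, not used for the values above, gave -1.36 with CpG and -1.0 with TNF and correlated with the first at 0.989 over 14 arrays.

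Itga4 encodes α4, which joins β7 or β1. Its levels were 10.41 and 10.06 with solvent, 10.15 and 9.96 with CLIK148, and 10.14 and 9.85 with CA074Me. With CpG they were 11.24 and 10.54 after solvent and 11.20 and 10.39 after CLIK148, and with TNF 11.12 and 10.42 after solvent and 10.99 and 10.68 after CA074Me. Each stimulated array was above the unstimulated arrays of its own experiment, opposite to Itgb7 and Itgae. The CpG difference was 0.66 ± 0.34 (0.83 and 0.48), with limma adjusted p = 0.341, and 0.0208 with the block. With 1 array left out and no block, the CpG difference lay between 0.30, without the CpG array of experiment 1, and 1.01, without that of experiment 2. Those fits do not pair the arrays, so the gap between experiments enters this range. The TNF difference of 0.54 (0.71 and 0.36) did not pass either way (0.802, and 0.0952 with the block). Of the 5 Itga4 probe sets, the next 3 in brightness gave CpG differences of 0.66, 0.96 and 0.39, and the dimmest, under the overall median throughout, gave -0.05.

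Itgb1 encodes β1, the chain shared by the matrix-binding integrins and by α4β1. Its solvent arrays read 11.97 and 11.84, its CLIK148 arrays 11.99 and 11.93, and its CA074Me arrays 11.75 and 11.80. CpG brought it to 12.51 and 12.31 after solvent and 12.42 and 12.12 after CLIK148. With TNF it was at 12.17 and 12.14 after solvent and 12.16 and 12.02 after CA074Me. All stimulated arrays thus lay above all unstimulated ones, the lowest stimulated array at 12.02 and the highest unstimulated at 11.99. The TNF difference from solvent was 0.25 (0.2 and 0.3) and did not pass (limma adjusted p = 0.702, and 0.137 with the block). The CpG difference was 0.50 ± 0.11 (0.54 and 0.47), which narrowly missed the threshold without the block (limma adjusted p = 0.0595) and passed with it (0.00641). Without the CpG array of experiment 2 it was 0.60 and passed (0.0283). Of its 6 probe sets, the next in brightness gave 0.38 and 0.31.

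**Figure D2:**
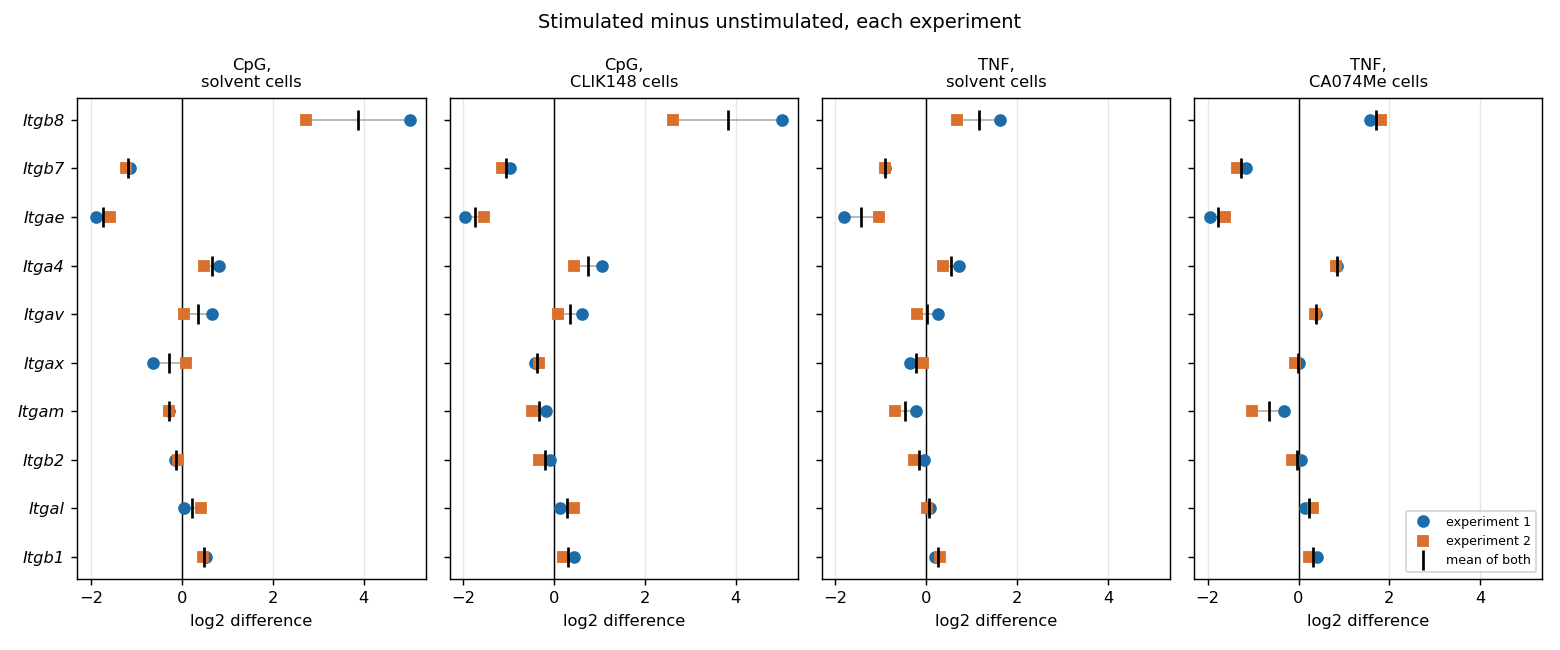
Stimulated minus unstimulated log2 difference (x axis) of each integrin gene (y axis) for CpG in solvent- and CLIK148-treated cells and TNF in solvent- and CA074Me-treated cells. Circles are experiment 1, squares experiment 2 and black ticks their mean. Itgb7 and Itgae lie left of 0 and Itgb8, Itga4 and Itgb1 right of 0 in all 4 panels, and the Itgb8 points of the CpG panels are the furthest apart (5.02 and 2.73 after solvent).

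The β2 family genes did not pass the test with either stimulus, with or without the block. Itgb2 encodes β2, and Itgal, Itgam and Itgax encode the αL, αM (CD11b) and αX (CD11c) chains that pair with it, αX being the usual marker of mouse dendritic cells. The Itgax promoter (chr7:128129300-128129549, plus strand, GRCm38.p6, same window) is shown as the only 1 of the 7 that holds the AP-1 letters TGANTCA, marked in capitals.
Itgax: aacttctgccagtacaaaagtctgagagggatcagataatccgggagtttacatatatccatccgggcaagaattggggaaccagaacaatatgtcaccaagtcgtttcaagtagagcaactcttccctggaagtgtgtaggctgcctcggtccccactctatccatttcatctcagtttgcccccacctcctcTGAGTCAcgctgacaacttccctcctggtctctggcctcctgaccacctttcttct
Over all arrays Itgb2 ranged from 13.04 to 14.05, Itgal from 10.79 to 12.02, Itgam from 10.79 to 11.94 and Itgax from 10.91 to 12.08. For Itgax, solvent arrays read 12.08 and 11.21 and CpG arrays 11.44 and 11.30. The sign of this CpG difference was opposite in the experiments (-0.64 and 0.09), but after CLIK148 it was negative in both (-0.42 and -0.32). Itgam was at 11.54 and 11.94 with solvent, 11.27 and 11.65 with CpG, and 11.31 and 11.26 with TNF. Its TNF difference was -0.46 ± 0.21 (-0.23 and -0.69; limma adjusted p = 0.727, and 0.217 with the block), lower in both experiments. The interaction of TNF with experiment, added after the values were seen, pools solvent and CA074Me arrays. In it 2 of the 10 genes differed, Itgam (-0.60) and Itgae (0.55), where 2.5% of all tested genes did. The 95% confidence interval of the CpG difference was -1.15 to 0.90 for Itgb2 and -1.04 to 1.51 for Itgal without the block, and -0.34 to 0.10 and -0.04 to 0.51 with it.

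After CLIK148 the CpG differences were close in value to those after solvent. Itgb8 rose by 3.82 ± 0.66 (5.02 and 2.61; limma adjusted p = 0.0412) and Itgb7 changed by -1.06 (-0.97 and -1.14; 0.00932), so 2 of the 10 passed, where 0.813% of all tested genes did. With the block 5 passed, where 17.1% did, Itgae (-1.74), Itga4 (0.74) and Itgb1 (0.31) being the others. The Itgb8 call was lost without either CLIK148 array (adjusted p = 0.304 and 0.197), without the first experiment's CpG array (2.84; 0.276), with only the compared groups (0.359) and with no filter on dim genes (0.0511). That of Itgb7 was lost without either CLIK148 array (0.104 and 0.0798) and with only the compared groups (0.348).

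After CA074Me, TNF changed Itgb7 by -1.26 (-1.16 and -1.35; limma adjusted p = 0.00246), the only 1 of the 10 to pass, where 1.31% of all tested genes did. With the block 4 passed, where 11.1% of all tested genes did, adding Itgae (-1.78, adjusted p = 0.00102), Itga4 (0.84, 0.0109) and Itgb1 (0.31, 0.0441). Itgb8 was 1.70 ± 0.66 higher (1.58 and 1.82; 0.331, and 0.104 with the block). Itgam differed by -0.66 (-0.31 and -1.02; 0.215, and 0.0557 with the block). Fitting only the compared groups ended the Itgb7 call (0.11).

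CpG and TNF were also set against each other in solvent-treated cells. None of the 10 genes passed in limma, where 0.00822% of all tested genes did, 1 of 12172 (773 at an unadjusted p under 0.05), nor did any with the block, where 0.435% did. Apart from Itgb8 the differences ran from -0.30 for Itgae to 0.33 for Itgav. For Itgb7 CpG was lower than TNF in both experiments (-0.25 and -0.31; limma adjusted p = 0.732, and 0.148 with the block). Itgae was likewise lower with CpG, by unequal amounts (-0.07 and -0.53).

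The cathepsin inhibitors had no integrin gene past the threshold in any comparison. In unstimulated cells the CLIK148 differences from solvent ran from -0.18 (Itga4) to 0.05 (Itgb1), and the CA074Me differences from -0.24 (Itga4) to 0.31 (Itgb8). Under CpG the CLIK148 differences ran from -0.20 (Itgax) to 0.01 (Itgb7). In limma 0 of 12172 tested genes passed in each of these 3 comparisons with or without the block, and 12, 66 and 68 genes had an unadjusted p under 0.05 without it (45, 335 and 226 with it). Without the block the 95% confidence intervals were broad for Itgb8 and Itgae, whose spread within groups was the widest of the 10 (pooled SD 0.75 and 1.33). With CLIK148 alone they were -1.47 to 1.53 and -2.69 to 2.65. With the block, which removes the gap between experiments, they were -1.33 to 1.38 for Itgb8 and -0.42 to 0.38 for Itgae. For Itgb7, where the experiments were close, the interval without the block was -0.36 to 0.12 with CLIK148 and -0.13 to 0.35 with CA074Me.

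CA074Me under TNF was the inhibitor comparison with the widest span. It ran from -0.47 for Itgae (-0.25 and -0.70) to 0.86 ± 0.66 for Itgb8 (0.54 and 1.17; 95% confidence interval -0.64 to 2.36). Itgb7 differed by -0.24 (-0.13 and -0.35; interval -0.48 to 0.00). Each of these 3 had the same sign in both experiments, and none passed (limma adjusted p = 1 with and without the block). Unadjusted p with the block was 0.185 for Itgb8, 0.0112 for Itgb7 and 0.0246 for Itgae. Across all tested genes 0% passed without the block (98 at an unadjusted p under 0.05) and 1 gene, 0.00822%, with it (370 at an unadjusted p under 0.05).

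The inhibitors were compared directly at their shared dose of 5 µM in unstimulated cells. CLIK148 minus CA074Me ran from -0.28 for Itgb8 (interval -1.78 to 1.22) to 0.18 for Itgb1 (-0.07 to 0.44), and 0 genes of 12172 passed in limma (58 at an unadjusted p under 0.05, and 287 with the block). For Itgb7 it was -0.23 (-0.28 and -0.18; interval -0.47 to 0.01). Under a stimulus the inhibitors met different agents, CLIK148 with CpG and CA074Me with TNF, and are not compared there. The interactions of inhibitor and stimulus had no integrin gene past the threshold either, with 0 of 12172 genes called (15 at an unadjusted p under 0.05 for CLIK148 with CpG and 80 for CA074Me with TNF).

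**Figure D3:**
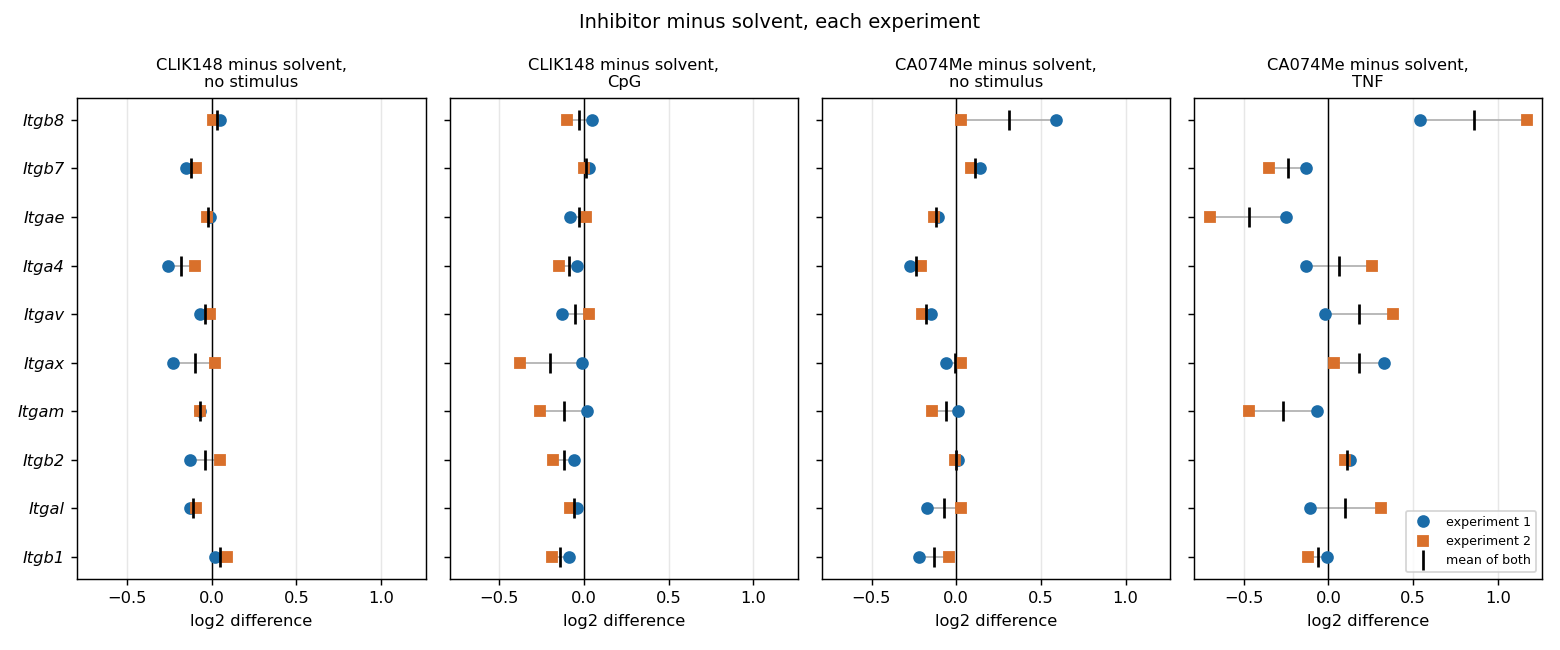
Inhibitor minus solvent log2 difference (x axis) of each integrin gene (y axis), for CLIK148 without stimulus and under CpG and CA074Me without stimulus and under TNF. Circles are experiment 1, squares experiment 2 and black ticks their mean. The scale is narrower than for the stimuli, with all means between -0.47 and 0.86, both reached under TNF.

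The experiments differed in level for 7 of the 10 genes, where 44.6% of all tested genes differed (32.4% higher and 12.2% lower in experiment 2; limma with group and experiment as terms). Experiment 2 was higher for Itgae by 1.87 ± 0.09 log2 (adjusted p = 2.33e-06) and for Itgav by 0.46 ± 0.09, in 7 of 7 groups each. It was lower for Itgal (-0.88), Itgb2 (-0.71), Itgax (-0.63) and Itga4 (-0.48), in 7 of 7 groups each, and for Itgb7 (-0.12, adjusted p = 0.0398) in 6 of 7. Thus 3 of the 4 β2 family genes were lower in experiment 2, while Itgam (0.15), Itgb8 (-0.45) and Itgb1 (-0.12) did not pass. The call of Itgb7 was lost with array weights (0.0539) and a trended prior (0.0529), and those of Itga4 and Itgav with the mean of their probe sets (-0.15, 0.0817, and 0.11, 0.0652). Itgb1 gained a call with cyclic loess (-0.17, 0.0199) and with median centring (-0.21, 0.0179).

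**Figure D4:**
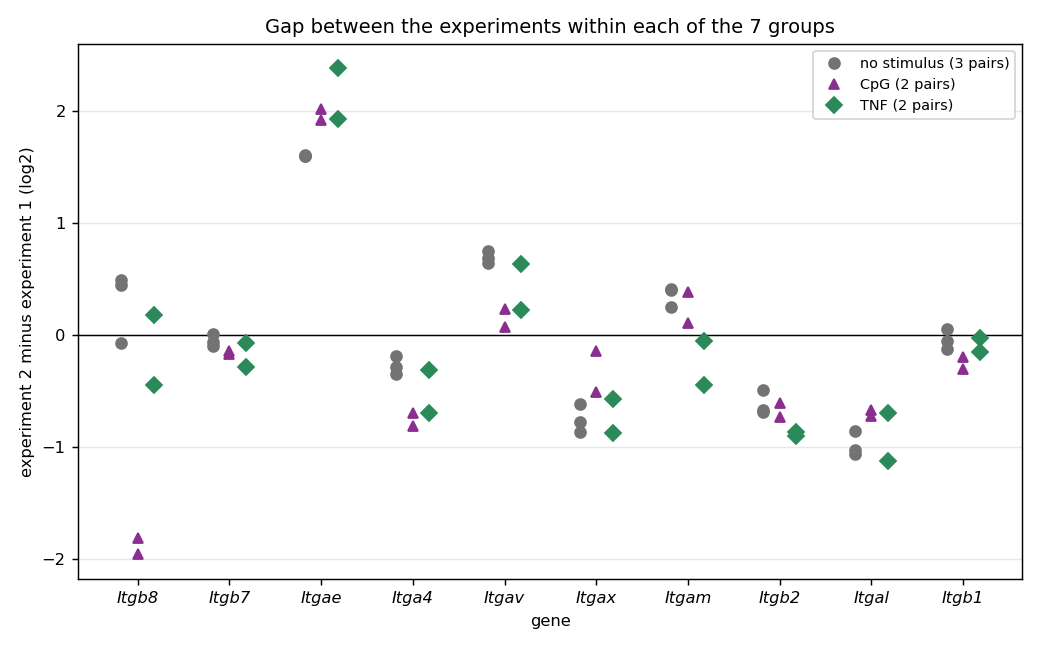
Experiment 2 minus experiment 1 (log2, y axis) for each integrin gene (x axis), 1 point per group: circles for the 3 unstimulated groups, triangles for the 2 CpG groups and diamonds for the 2 TNF groups. All 7 points are above 0 for Itgae (1.6 to 2.38) and below 0 for Itgb2 and Itgal, and the CpG points of Itgb8 lie near -1.81 and -1.96, apart from its others.

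The 10 genes are read by 25 probe sets, and Itgb8, Itgb7, Itgax, Itgam and Itgb2 have 1 each, so no second reading exists for the 2 genes that passed with CpG. Of the 15 probe sets not used, 7 stayed below the overall median on every array, 3 of Itgav, 3 of Itgb1 and 1 of Itga4. The CpG differences of these 7 ran from -0.05 to 0.23. Among the 8 brighter ones the sign was that of the set used in every case. Those of Itgb1 correlated with the set used at 0.985 and 0.905, those of Itga4 at 0.539 to 0.953, and the Itgal set at 0.976.

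**Figure D5:**
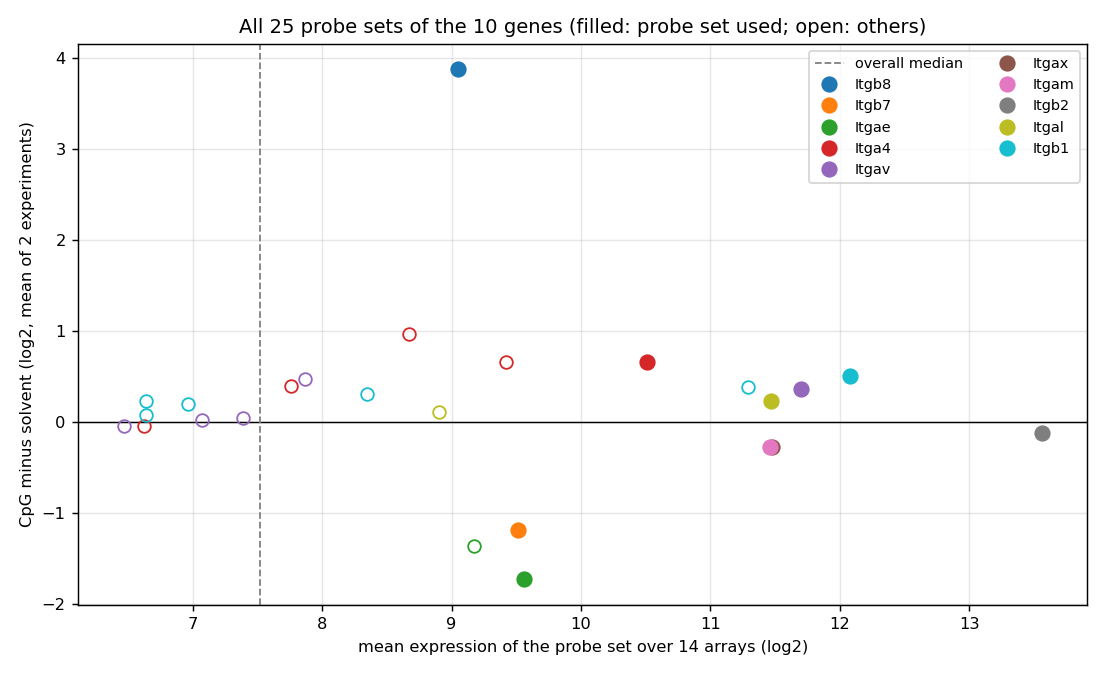
CpG minus solvent (log2, mean of 2 experiments, y axis) against mean level over 14 arrays (log2, x axis) for all 25 probe sets of the 10 genes; filled points are the sets used, open points the others, and the dashed line is the overall median of 7.52. The open points left of the line lie between -0.05 and 0.23, and the Itgb8 point is at 3.87.

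Of 18 other integrin subunit genes listed, 16 were on the array and 10 were tested. None passed with CpG or TNF without the block, where 1.92% and 0.115% of all tested genes did. With it 2 passed with CpG, where 19.9% of all tested genes did, and 1 with TNF, where 3.11% did. Itga1, the collagen receptor chain α1, fell with CpG (-0.82, with -1.02 and -0.62; limma adjusted p = 0.191, and 0.00371 with the block). Itga5, the fibronectin receptor chain α5, rose (0.63, with 0.47 and 0.80; 0.243, and 0.0443 with the block). With TNF Itgb2l, named after its values were seen, rose with the block (0.37, with 0.42 and 0.31; 0.475, and 0.0353 with the block). Itgb5, whose product pairs with αv, had -0.57 (-1.01 and -0.13) and did not pass. Itgb6, whose product also pairs with αv to free TGF-β, was below the overall median on every array (6.77 to 6.96), as were Itga2, Itga7, Itga8, Itga10 and Itgbl1. The median CpG difference of the 10 tested was 0.03, beside -0.05 for all tested genes.

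Among 28 genes for integrin ligands 25 were on the array and 16 were tested, with 1 higher and 0 lower with CpG (3 and 1 with the block; median 0.24). Of all tested genes 1.92% passed with CpG, and 19.9% with the block, the background for this list and the next 2. F11r, which encodes the junctional adhesion molecule bound by αLβ2, read 10.21 and 9.76 with solvent and 10.99 and 10.80 with CpG, a rise of 0.91 ± 0.18 (limma adjusted p = 0.0464). That call held with the block and was lost in the 6 other alternative fits on all arrays, with adjusted p from 0.0516 to 0.171. Cdh1 encodes E-cadherin, the ligand of αEβ7. It read 11.42 and 12.54 with solvent, 9.24 and 10.98 with CpG and 9.36 and 11.34 with TNF, so it was low on the stimulated arrays and high in experiment 2, as Itgae was. Its CpG difference of -1.87 passed with the block alone (0.32, and 0.00244 with it), as did that with TNF (-1.63; 0.778 and 0.0129). Vcam1, the ligand of α4β1, went from 7.89 and 7.83 to 9.72 and 8.22 with CpG, which did not pass (1.12 ± 0.58; 0.347, and 0.0766 with the block).

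Of 20 genes for latent TGF-β and its activation 19 were on the array and 15 were tested, with 1 higher and 1 lower with CpG (2 and 3 with the block; median -0.07). The receptor gene Tgfbr2 read 11.92 and 11.98 with solvent and 10.85 and 11.24 with CpG, a difference of -0.90 ± 0.12 (limma adjusted p = 0.0139). Skil, which encodes a repressor of SMAD signalling, rose from 12.12 and 12.10 to 12.67 and 12.68 (0.56 ± 0.11; 0.0406). Tgfbr1, the other receptor chain, differed by -0.64 (-0.88 and -0.39; 0.179, and 0.0177 with the block).

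Of 39 genes for integrin activation and adhesion signalling 34 were on the array and 31 were tested, with 1 higher and 1 lower with CpG (1 and 3 with the block; median -0.03). Fyb, an adaptor that links receptors to integrin activation, rose from 11.44 and 11.57 to 11.96 and 12.22 (0.59 ± 0.10; limma adjusted p = 0.027). Cass4, a scaffold of the Cas family at focal adhesions, went from 9.73 and 9.98 to 8.26 and 8.80, a difference of -1.32 ± 0.18 (0.0138). Rassf5, whose product RAPL binds αL after Rap1 signals, had -0.79 (-1.10 and -0.49; 0.0686, and 0.0113 with the block). All 5 genes called in these lists lost the call without either solvent array (adjusted p from 0.0873 to 0.24), and all but Fyb without the CpG array of experiment 1 (0.0773 to 0.314). Skil also lost it with array weights (0.118), Fyb with array weights (0.0767) and with the mean of its probe sets (0.0892), and all 5 in fits of the compared groups alone (0.528 to 0.536). After CLIK148, CpG lowered Tgfbr2 (-0.91, limma adjusted p = 0.0165) and Cass4 (-1.29, 0.0168), where 0.813% of all tested genes passed. With TNF no gene of these lists passed in solvent-treated cells without the block. The share of all tested genes that passed with TNF was 0.115% after solvent and 1.31% after CA074Me. After CA074Me, TNF lowered Tgfbr2 (difference -0.71, with -0.64 and -0.79; limma adjusted p = 0.0365), a call lost without any of the 4 arrays compared (0.119 to 0.292), with the mean of its probe sets (-0.29, 0.0845) and with the compared groups alone (0.11). With the block 4 list genes passed with TNF in solvent-treated cells, where 3.11% of all tested genes did: Cdh1, Icam1 (0.57; 0.0373), Tgfbr2 (-0.68; 0.0184) and Tgfb3 (-0.51; 0.017). Icam1, a ligand of αLβ2 and αMβ2, and Tgfb3, a TGF-β gene, were named after their values were seen. Both also passed with CpG with the block, where 19.9% of all tested genes did. Icam1 differed there by 0.84 (limma adjusted p = 0.162, and 0.00338 with the block) and Tgfb3 by -0.31 (0.805, and 0.0317 with the block).

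For Itgb7 the genes with the most similar pattern were Adora3, Pgm2l1 and Hhex, with r of 0.995, 0.99 and 0.989 over 14 arrays after each experiment's mean was subtracted. Adora3 encodes an adenosine receptor, Pgm2l1 an enzyme that makes glucose bisphosphate and Hhex a homeobox factor. Without subtracting the experiment means r was 0.926 for Adora3, 0.978 for Pgm2l1 and 0.889 for Hhex. The 3 were picked for following Itgb7 on these arrays, so their falls follow from that choice and are no separate result. Pgm2l1 fell with CpG (-0.98, limma adjusted p = 0.0055) and with TNF (-0.74, 0.0348), and Adora3 with CpG (-0.96, 0.045). Hhex differed by -1.22 with CpG (0.0573, and 0.00095 with the block). Without either solvent array the CpG calls of Adora3 and Pgm2l1 were lost (0.0501 to 0.222). The TNF call of Pgm2l1 was lost without any of the 4 arrays compared (0.153 to 0.43), with the mean of its probe sets (0.0913) and in a fit of the compared groups alone (0.55). Within the 10 integrin genes, on the same scale, Itgb7 ran with Itgae (r = 0.967) and against Itga4 (-0.923), Itgb1 (-0.862) and Itgb8 (-0.829). Itgb8 ran with Itgb1 (0.882) and Itgav (0.878).

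Marker levels of other cells were read beside these changes. The summed macrophage level covers 7 of 8 markers, with Vsig4 below the overall median throughout. It was 15.30 to 15.50 without a stimulus, 14.92 to 15.25 with CpG and 14.90 to 15.19 with TNF. The sum was thus lower on every stimulated array, as Itgb7 was. The mean log2 level of the 7 in experiments 1 and 2 was 11.30 and 11.07 with solvent. It was 11.11 and 10.83 with CpG and 10.84 and 10.84 with TNF. By the mean, the CpG array of experiment 1 thus lay above the solvent array of experiment 2. Of the 6 tested markers, 4 had a CpG difference below 0 and 2 above, and all 6 a TNF difference below 0. The part of this shift in the integrin values was not tested. Of all tested genes 1.92% passed with CpG and 0.115% with TNF (19.9% and 3.11% with the block). Beside that, 0 of the 6 tested macrophage markers passed with either stimulus without the block. With it 3, all lower, passed with CpG and 0 with TNF. Of the 11 tested dendritic cell markers 0 were higher and 2 lower with CpG (1 and 3 with the block). With TNF 0 of these 11 were higher and 1 lower (0 and 2 with the block). The mean level of the 12 on the array in experiments 1 and 2 was 11 and 10.97 with solvent, 10.57 and 10.86 with CpG, and 10.62 and 10.86 with TNF, so it was lower with either stimulus in both experiments. Their summed level was 15.93 to 16.08 without a stimulus, 15.96 to 16.24 with CpG and 15.88 to 16.08 with TNF, and their part in the integrin values was not tested. Granulocyte markers (7 of 10 on the array, none below the overall median throughout) summed to 16.25 to 16.48, 16.36 to 16.60 and 16.27 to 16.65 in the same order, and mast cell and basophil markers (7 of 8, Mcpt4 and Tpsb2 below throughout) to 12.34 to 12.80, 12.64 to 12.76 and 12.59 to 12.73. Lymphocyte and plasmacytoid markers (6 of 8 on the array, 3 of them below throughout) stayed within 9.97 and 10.11. The 4 erythroid and stromal markers on the array were below the overall median on every array.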

How the data were processed

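Per the submitters' processing notes, the authors made the deposited log2 values by RMA in R 3.0.1; its settings are not stated in any source used here. Per the labels' protocols, 100 ng of total RNA was amplified and labelled for each array. The table holds 45101 probe sets on 14 arrays. The array's annotation names 1 gene for 34945 of them, several for 932 and none for 9224, controls included; 34741 of the first matched a mouse RefSeq gene and 0 symbols needed updating. RMA shrinks differences of dim probe sets, so a fold from a dim level can be too small.

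Differences were fitted here in limma 3.58.1 (R 4.3.3) on all 14 arrays and 7 groups without the experiment (7 residual degrees of freedom), with 2-sided tests and Benjamini-Hochberg adjustment over 12172 genes within each comparison, called at adjusted p under 0.05. The alternative with the experiment as a block has 6. The labels number 2 independent experiments, and over 21 pairs of groups the gap between replicates correlated at 0.455 to 0.935, so the numbers pair the arrays; the block takes that gap as equal in all groups. P-values rest on 2 arrays per group, whose number limits precision. Promoters are from the RefSeq table of build GRCm38.p6, where 7 of the 10 genes have an entry.

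The members and gene lists were chosen with earlier results of these data known. Named beside the 10 genes were, from each pathway list, the genes called with CpG or TNF without the block and the 3 tested genes with the largest CpG difference, and the 3 genes most like Itgb8 and Itgb7. Other scalings, filters, probe set choices, priors, array weights, fits on the compared groups only and the omission of each array were tried as alternatives.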

Additional observations from a re-analysis of the deposited data

Results flagged for a closer look

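The response to a stimulus differed between the experiments for several integrin genes. The test was an interaction of stimulus and experiment in limma with 4 degrees of freedom left, chosen after the values were seen. It pools solvent with CLIK148 arrays for CpG and with CA074Me arrays for TNF, 1 array per group and experiment. Its error is the spread between differently treated cultures of the same experiment, not between repeated experiments. In it 32.6% of all tested genes differed for CpG and 2.5% for TNF. For CpG, experiment 2 minus experiment 1 was -2.17 log2 for Itgb8 (limma adjusted p = 6.7e-06), -0.54 for Itgav (0.00355), -0.48 for Itga4 (0.00613), 0.43 for Itgax (0.0216) and 0.37 for Itgae (0.028). After solvent the CpG differences in experiments 1 and 2 were 5.02 and 2.73 for Itgb8 and 0.66 and 0.05 for Itgav. They were 0.83 and 0.48 for Itga4, -0.64 and 0.09 for Itgax, and -1.89 and -1.57 for Itgae. After CLIK148 they were 5.02 and 2.61 for Itgb8, 0.61 and 0.09 for Itgav, and 1.05 and 0.43 for Itga4. Itgax had -0.42 and -0.32 there, with the same sign, and Itgae -1.95 and -1.53. For TNF, experiment 2 minus experiment 1 was 0.55 for Itgae (limma adjusted p = 0.0286) and -0.60 for Itgam (0.027). After solvent the TNF differences by experiment were -1.81 and -1.05 for Itgae and -0.23 and -0.69 for Itgam, the latter called in no fit.

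In 2 further cases an inhibitor's differences had opposite signs with and without a stimulus in both experiments. CLIK148 minus solvent for Itgb1 was 0.02 and 0.09 alone and -0.09 and -0.19 under CpG, an interaction of -0.19. CA074Me minus solvent for Itgb7 was 0.14 and 0.09 alone and -0.13 and -0.35 under TNF, an interaction of -0.35. Neither interaction passed in limma (adjusted p = 1 for each).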

How the results depend on the processing

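Of the 10 integrin genes, 2 were called with CpG, 1 with TNF, 2 with CpG after CLIK148 and 1 with TNF after CA074Me. With the replicate block, which pairs the arrays, these counts were 5, 2, 5 and 4. When the fit held the compared groups alone they were 0 throughout. Array weights left 1 with CpG, cyclic loess and median centring each left 0 with TNF, and testing all genes without a filter left 1 with CpG after CLIK148. Leaving out 1 array at a time gave 0 to 3, 0 to 0, 0 to 2 and 1 to 1 called genes in the same order. In the other 8 comparisons of treatments the count was 0 under every alternative, with 0 to 0 for single arrays left out. The count of 7 genes that differ between experiments stayed within 1.5 times under the alternatives run. The block changed no other call among the 10 genes, and no difference of a called gene changed sign. Median centring moved the median difference of all tested genes by 0.14 log2 (CpG) and 0.11 (TNF), so rises come out higher and falls smaller by that much. Fits that omit an array leave 1 group with 1 array, taken to vary like the others. The causes of these changes were not tested. Itgb8 lay below the overall median on 2 of the 14 arrays, so its unstimulated level is near the array's dim range.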
